A study of Mus musculus with 15 samples.

Results

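The proteasome genes described here are the gene symbols made of Psm, a letter from a to g and a number, with or without a closing a or b. They were chosen by name alone, and 49 of the 24982 symbols counted fit the pattern. Of these, 47 had enough counts to be tested, among 15696 tested genes in all, and Psmb8 and Psmb11 had not. The set holds 14 constitutive core subunits (7 alpha subunits, Psma1 to Psma7, and 7 beta subunits, Psmb1 to Psmb7), the tissue-restricted core subunits Psma8 and Psmb11, and the 3 immunoproteasome subunits Psmb8, Psmb9 and Psmb10. It further holds 17 subunits of the regulatory particle (6 ATPases, Psmc1 to Psmc6, and 11 non-ATPases of the Psmd series). The rest are 5 activators (Psme1, Psme2, Psme2b, Psme3 and Psme4), the inhibitor Psmf1 and 7 assembly factors (Psmd5, Psmd9, Psmd10 and Psmg1 to Psmg4).

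The proteasome degrades most of the short-lived and damaged proteins that a cell has tagged with ubiquitin. In its barrel-shaped core particle, outer rings of alpha subunits gate the entry to inner rings of beta subunits, where Psmb5, Psmb6 and Psmb7 carry the catalytic sites. The regulatory particle caps the barrel, its non-ATPase subunits bind the ubiquitin chain and cut it off, and its ATPase ring unfolds the substrate and threads it in. Human embryonic stem cells are known for high proteasome activity. ATG7, the product of the gene knocked out here, is the E1-like enzyme of autophagy, the lysosomal route by which cells degrade proteins and organelles.

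Polyadenylated RNA of the mouse embryonic stem cell line E14TG2 was sequenced in 15 libraries, 3 in each of 5 groups. The groups were Atg7 knockout (KO) cells and control cells at day 2 of the transition to epiblast-like cells (EpiLCs), KO and control cells at day 4, and control ESCs at day 0. ESCs had been kept on inactivated mouse embryonic fibroblasts with LIF, PD0325901 (a MEK inhibitor) and CHIR99021 (a GSK3 inhibitor), and the transition was run on fibronectin in N2B27 medium with Activin A, bFGF and serum replacement. No KO library of day 0 was analysed here. The sources used here do not state which exons of Atg7 were deleted or whether the KO cells are 1 clone. The labels do not say whether replicates were separate cultures, so p-values measure the spread between these libraries, which may be technical.

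Library totals lay between 14059237 and 23371546 counts. Levels are CPM, counts scaled to a common library size. "Rose", "fell", "higher" and "lower" in a test refer to an adjusted p under 0.05 in edgeR's quasi-likelihood test over all tested genes, and each fold change is given as log2 ± its standard error, over 3 and 3 libraries. Atg7, the targeted gene on chromosome 6, had 6.84, 7.53 and 7.11 CPM in KO libraries and 14.6, 12.1 and 14 CPM in control libraries at day 2, and 12.6, 12.7 and 10.4 CPM in KO and 19.1, 19.9 and 19.4 CPM in control libraries at day 4. Transcript was thus lowered and not lost in the KO libraries. Hprt, which E14TG2 cells are known to lack, had 183, 203 and 199.97 CPM in the ESC libraries but between 1.59 and 2.94 CPM in every library of days 2 and 4. The ESC libraries therefore go against the label that puts them in the same line, and in every comparison with day 0 the transition and a difference between cell stocks cannot be told apart. Fibroblast markers (22 genes, 21 tested) summed to 2458, 1272 and 359 CPM in ESC libraries, to 701, 1154 and 808 CPM in KO and 529.7, 515 and 480.1 CPM in control libraries at day 2, and to 337, 320.0 and 382 CPM in KO and 261, 261 and 254 CPM in control libraries at day 4. ESC replicate 3 had the lowest and KO day 2 replicate 2 the highest sum of its group, so the main counts are also given without both. Of the 21 tested fibroblast markers, 6 (28.6%) were higher and 0 lower in KO than in control cells at day 2. At day 4, 2 (9.52%) were higher and 0 lower. Of 10 pluripotency markers, 4 (40.0%) were higher and 2 (20.0%) lower in KO cells at day 2, and 7 (70.0%) were higher and 0 lower at day 4. Of the 5 tested leukocyte markers of 7 listed, 1 (20.0%) was higher and 2 (40.0%) were lower at day 2. At day 4, 0 were higher and 1 (20.0%) lower. Of all tested genes, 20.4% were higher and 21.4% lower at day 2, and 19.5% higher and 18.1% lower at day 4.

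Proteasome transcripts made up 0.595 ± 0.00942% of counts in KO and 0.621 ± 0.00407% in control libraries at day 2 (mean ± SD, n = 3 libraries in each group). At day 4 the shares were 0.627 ± 0.00572% in KO and 0.682 ± 0.0148% in control libraries, and ESC libraries had 0.767 ± 0.0289%. At each day all 3 KO libraries lay below all 3 control libraries. Two-sided exact permutation tests of these shares gave p = 0.1 at each day, the smallest value that 3 against 3 libraries can give. Fewer cells with a transcript and less transcript per cell cannot be told apart in these bulk libraries.

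From ESCs to control cells at day 2, most of the proteasome went down together. Of the 47 tested genes, 36 (76.6%) were lower in control cells at day 2 than in ESCs, against 34.9% of all tested genes, and 4 (8.51%) were higher, against 35.6%. The 4 that rose were Psmb9, Psmb10, Psme4 and Psmg2. The Psmg2 call was lost without ESC day 0 replicate 3, control day 2 replicate 1 or control day 2 replicate 3 (adjusted p 0.0659 to 0.145) and in the fit of the compared groups alone (0.0958) and without ESC replicate 3 and KO day 2 replicate 2 (0.155). The median log2 fold change was -0.45 over the proteasome genes and 0.02 over all tested genes, and the groups did not overlap for 39 genes (83.0%, against 69% of all tested genes). The counts were the same 36 and 4 without ESC replicate 3 and KO day 2 replicate 2. That fit kept the ESC libraries with more fibroblast transcript, so the part of fibroblast transcripts in these counts was not tested. ESC replicate 3 also had the lowest sum of proteasome transcripts in its group (7994 CPM, against 8630 and 8664 CPM).

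Between day 2 and day 4 the control cells moved in both directions. In control cells, 21 proteasome genes (44.7%) were higher at day 4 than at day 2, against 33.9% of all tested genes, and 16 (34.0%) were lower, against 34.6%. The median was 0.08 over the proteasome genes and -0.01 over all tested genes, and 39 genes (83.0%) had no overlap between the days, against 76.2% of all tested genes. Set against ESCs, control cells at day 4 were lower for 33 genes (70.2%), against 35.6% of all tested genes, and higher for 4 (8.51%), against 36.2%. The 4 were Psmb2, Psmb9, Psmd14 and Psmg2, the median was -0.31 against 0.02 over all tested genes, and 33 genes (70.2%) had no overlap, against 69.7%. Psmg2 lies on chromosome 18, whose 401 tested genes had a median of 0.32 in control day 4 against ESCs. The part of that shift in the Psmg2 value was not tested. These comparisons share the control libraries, and the values of each are given side by side below.

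**Figure D1:**
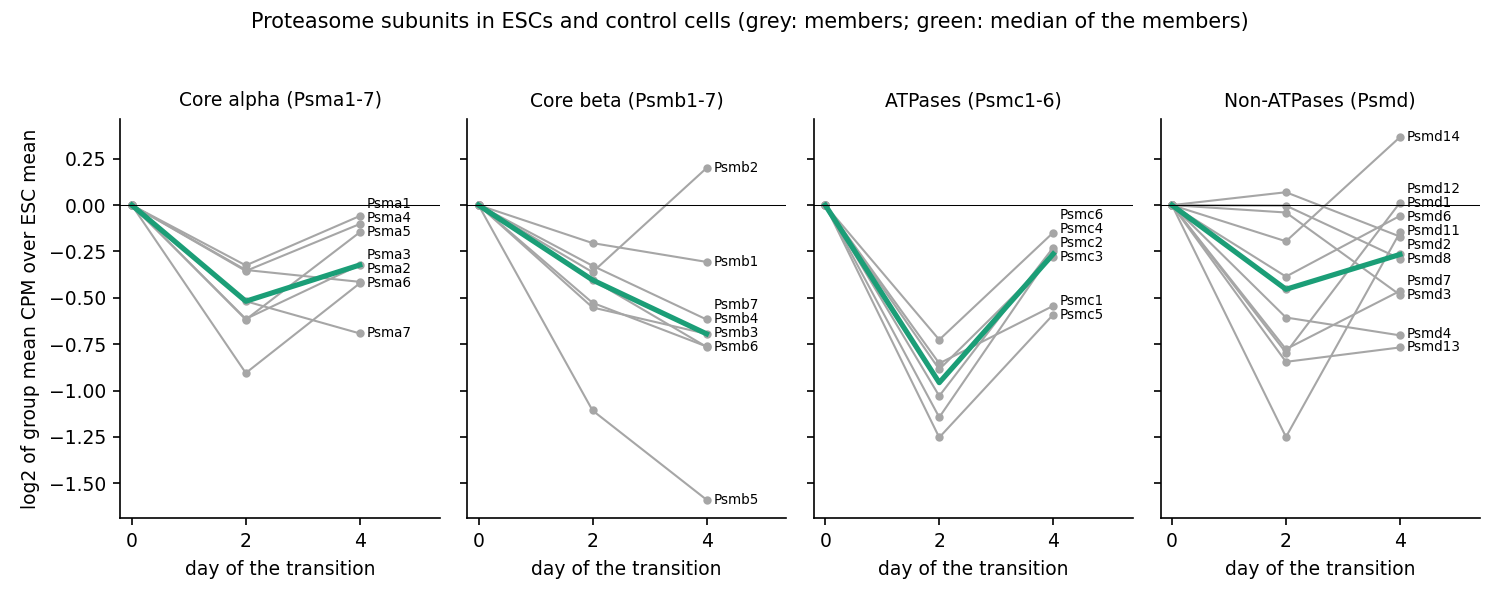
The log2 ratio of each group's mean CPM to the ESC mean is plotted against the day of the transition for ESCs (day 0) and control cells (days 2 and 4), in 4 classes of proteasome subunits. Grey lines are single genes and the green line is their median. All 6 ATPases dip at day 2 and lie higher again at day 4, while most beta subunits lie lower at day 4 than at day 2.

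The KO effect was smaller and mixed. At day 2, 7 proteasome genes (14.9%) were higher in KO than in control cells, against 20.4% of all tested genes, and 11 (23.4%) were lower, against 21.4%. The median log2 fold change was -0.07 over the proteasome genes and -0.01 over all tested genes. KO and control libraries did not overlap for 28 genes (59.6%), against 61.3% of all tested genes, so neither share stood far from the background. Without ESC replicate 3 and KO day 2 replicate 2, 9 were higher and 15 lower. Leaving out 1 library at a time gave 7 to 11 lower genes, the lowest without KO replicate 2.

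At day 4 the balance lay on the lower side. In KO cells 20 proteasome genes (42.6%) were lower than in control cells, against 18.1% of all tested genes, and 6 (12.8%) were higher, against 19.5%. The median was -0.13 over the proteasome genes and -0.01 over all tested genes, and 31 genes (66.0%) had no overlap, against 54.9%. Leaving out control replicate 2, control replicate 3 or KO replicate 3 lowered the 20 to 12, and without ESC replicate 3 and KO day 2 replicate 2 there were 21 lower and 6 higher. Tested directly, the KO effect was larger (more positive) at day 4 than at day 2 for 6 genes (12.8%), against 18.6% of all tested genes. It was smaller (more negative) for 8 genes (17%), against 17.6%, and this 8 became 5 without control day 2 replicate 1 or KO day 4 replicate 2 and 4 without KO day 2 replicate 2.

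**Figure D2:**
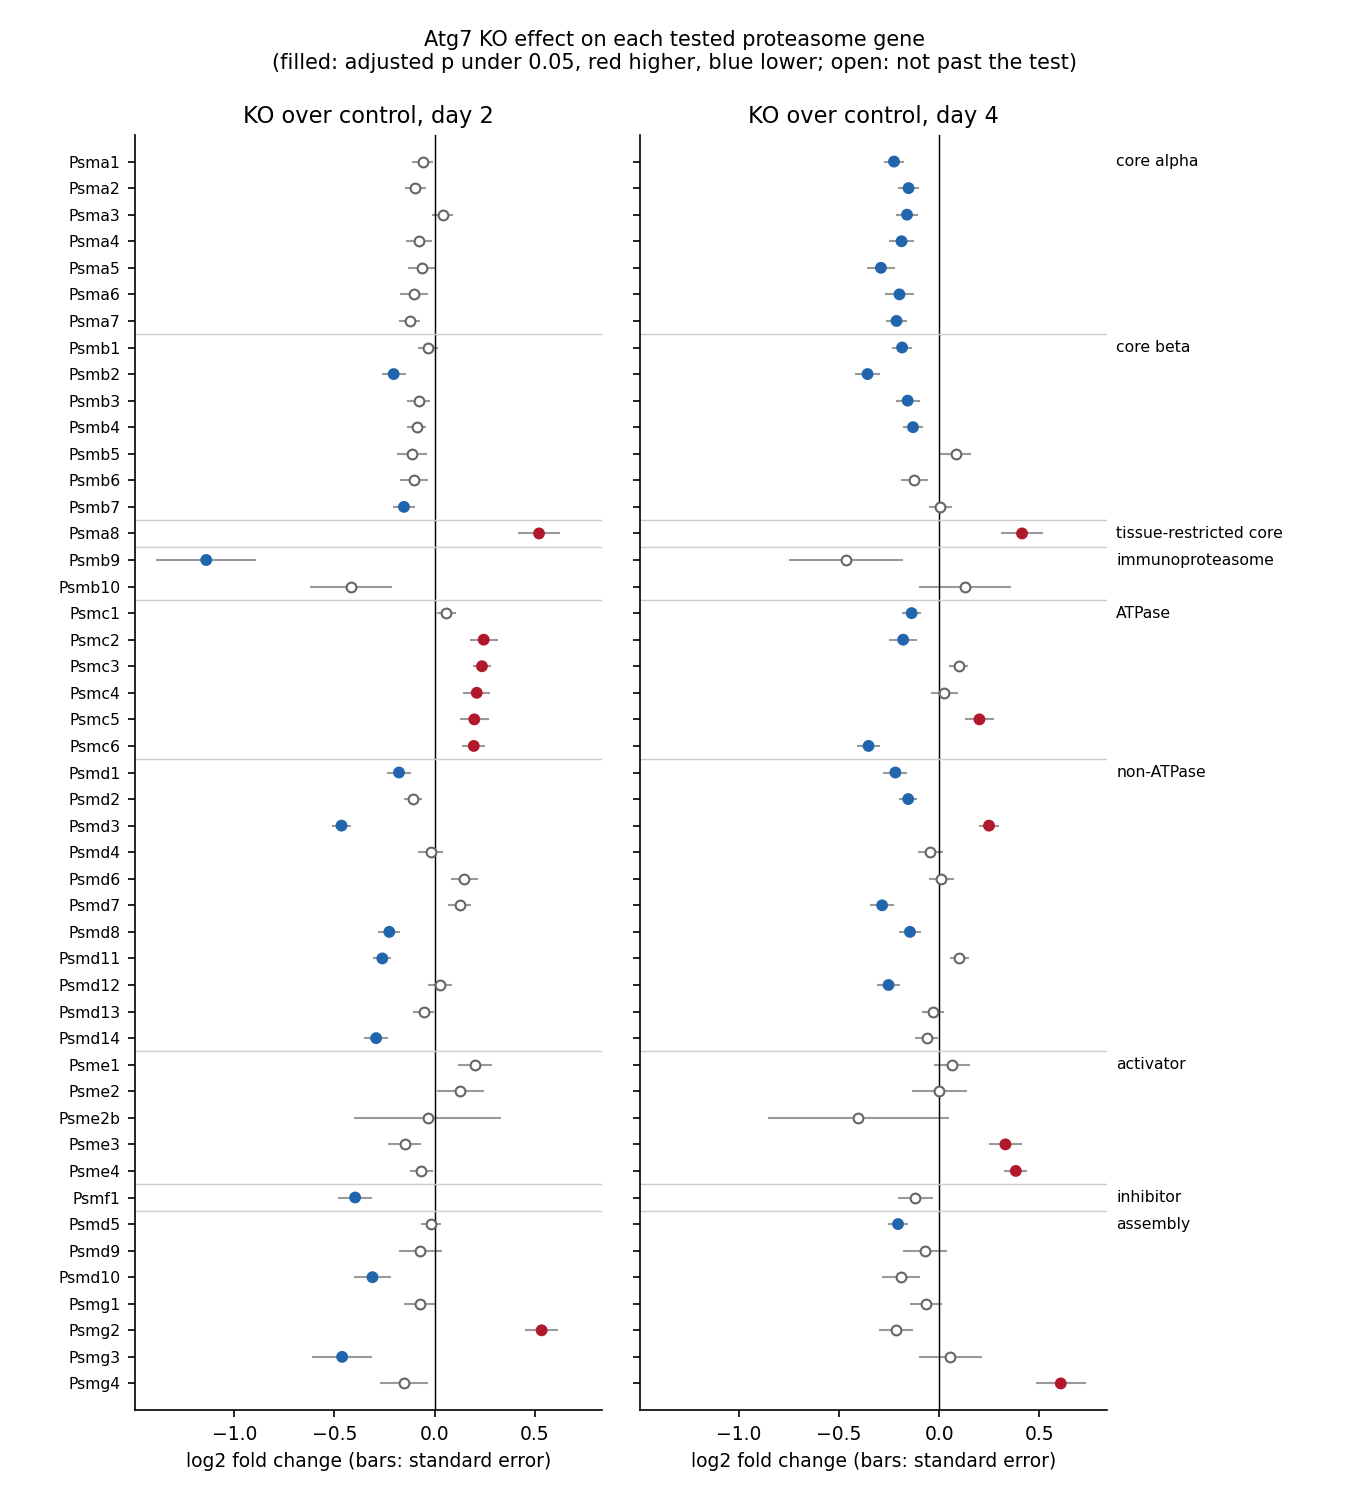
Each row is 1 of the 47 tested proteasome genes, grouped by role, and the x axis is the log2 fold change of KO over control cells at day 2 (left) and day 4 (right), with standard errors as bars. Filled points passed the test, red higher and blue lower in KO cells. The alpha subunits are all filled blue at day 4, and 5 of the 6 ATPases are filled red at day 2. Of all tested genes, 18.1% were lower at day 4 and 20.4% higher at day 2.

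The constitutive core subunits form the barrel itself. Per kilobase of exon, group means of the 14 ranged from 50.2 (Psma2) to 171 (Psmb5) CPM per kb in ESCs, and from 37.6 (Psma2) to 129 (Psmb2) in control cells at day 4. Lengths are the union of annotated exons in GENCODE M21, so levels of genes with long unused exons are understated. All 14 were lower in control cells at day 2 than in ESCs, against 34.9% of all tested genes. Their log2 fold changes lay between -1.11 (Psmb5) and -0.20 (Psmb1). All 14 also passed under every alternative tried for that comparison.

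After day 2 the alpha and the beta rings parted in control cells. Of the 7 alpha subunits 5 were higher at day 4 than at day 2 (Psma1, Psma3, Psma4, Psma5 and Psma6, by 0.25 to 0.48), and 1 was lower, Psma7, at -0.17 ± 0.05, a call lost with the stricter filter (0.0515). Of the 7 beta subunits only Psmb2 was higher, at 0.56 ± 0.06, and Psmb3, Psmb4, Psmb5, Psmb6 and Psmb7 were lower, at -0.48 to -0.14. The alpha shares were 71.4% higher and 14.3% lower, and the beta shares 14.3% and 71.4%. Of all tested genes, 33.9% were higher and 34.6% lower between these days. The Psmb4 call was lost without control day 2 replicate 2 or control day 4 replicate 1 (adjusted p 0.0516 to 0.078) and under RLE scaling (0.0691), under upper quartile scaling (0.0878), with the stricter filter (0.109) and with DESeq2 (0.0587). The ratio of the mean alpha to the mean beta level per kilobase was 0.810 ± 0.0244 in ESCs, 0.801 ± 0.00532 in control cells at day 2 and 1.04 ± 0.0139 in control cells at day 4. The 3 libraries of control day 4 lay above all libraries of the other control groups. In KO cells the ratio likewise went from 0.823 ± 0.0274 at day 2 to 0.996 ± 0.0124 at day 4. At day 2 the KO libraries lay just above all control libraries (lowest KO 0.8071, highest control 0.8068). At day 4 they lay below all control libraries. Exact two-sided permutation tests of KO against control gave p = 0.1 at each day.

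Psmb5, which carries the chymotrypsin-like site, had the deepest fall of the core from ESCs to control cells. It had 68.1, 64.9 and 65.1 CPM in KO and 69.6, 69.4 and 75.2 CPM in control libraries at day 2, 61.3, 46.8 and 54.3 CPM in KO and 48.7, 51.7 and 53.1 CPM in control libraries at day 4, and 156, 157 and 149 CPM in ESC libraries. Every library of days 2 and 4 lay below every ESC library, and the log2 fold change of control day 4 over ESCs was -1.59 ± 0.08 (adjusted p = 2.67e-11). The KO effect was -0.11 ± 0.08 at day 2 and 0.08 ± 0.08 at day 4, and neither passed the test. Of the 50-base stretches of Psmb5 exons, 54.1% also occur in other annotated genes, a pseudogene of Psmb5 among them, and 49.1% of those of Psma5 do. The sources used here do not state how such reads were counted, so the levels of these 2 genes are uncertain.

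In KO cells at day 4, the 7 alpha subunits and the beta subunits Psmb1, Psmb2, Psmb3 and Psmb4 were lower than in control cells. Thus 11 of 14 core subunits (78.6%) fell and 0 rose, against 18.1% and 19.5% of all tested genes. The fold changes of the 11 lay between -0.36 (Psmb2) and -0.13 (Psmb4). At day 2 the core had 0 higher and 2 lower subunits (14.3%), against 20.4% and 21.4% of all tested genes. The 2 were Psmb2 at -0.20 ± 0.06 (adjusted p = 0.0129) and Psmb7 at -0.15 ± 0.06 (adjusted p = 0.0355). The count of 11 at day 4 became 5 without control replicate 3, 6 without control replicate 2, KO replicate 1 or the filter, and 7 without KO replicate 2 or 3. The 2 at day 2 became 0 without KO replicate 1, 1 without any other single library but control replicate 1, and 4 without ESC replicate 3 and KO day 2 replicate 2. The 11 of day 4 stayed 11 without ESC replicate 3 and KO day 2 replicate 2.

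Psmb2, a non-catalytic beta subunit (chromosome 4, 126677630 to 126709714, plus strand, GRCm38), fell most among the core subunits. It had 125, 120.5 and 117 CPM in KO libraries at day 4, against 153, 153 and 159 CPM in control libraries, with no overlap, a log2 fold change of -0.36 ± 0.06 (adjusted p = 0.000231). At day 2 it had 88.7, 94.2 and 90.2 CPM in KO libraries, against 105, 107 and 103 CPM in control libraries, again with no overlap. Its day 2 call was lost without KO replicate 1 (adjusted p 0.0536), while the day 4 call held under every alternative. The Psmb7 call at day 2 was lost without any 1 of the 6 libraries (adjusted p 0.0629 to 0.095) and with no filter (0.0602).

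Psma5, an alpha subunit of the outer ring, had 109, 104 and 114 CPM in KO libraries at day 4, against 129.8, 128 and 143 CPM in control libraries. The log2 fold change was -0.29 ± 0.07 (adjusted p = 0.00321), the largest fall among the alpha subunits. Psma1 (-0.23 ± 0.05), Psma7 (-0.21 ± 0.05) and Psmb1 (-0.19 ± 0.05) likewise passed under every alternative. The other calls at day 4 were smaller and depended on single libraries. Psma2 (-0.15) was lost without control replicate 2, control replicate 3, KO replicate 1 or KO replicate 3 (adjusted p 0.0557 to 0.124) and with no filter (0.0728), and Psma3 (-0.16) without control replicate 2, control replicate 3, KO replicate 1 or KO replicate 2 (adjusted p 0.0557 to 0.128) and with no filter (0.0546). Psma4 (-0.19) was lost without control replicate 3, KO replicate 1, KO replicate 2 or KO replicate 3 (adjusted p 0.0631 to 0.139), and Psma6 (-0.20) without control replicate 2, control replicate 3, KO replicate 2 or KO replicate 3 (adjusted p 0.0715 to 0.175) and with no filter (0.0501). Psmb3 (-0.16) was lost without control replicate 2, control replicate 3, KO replicate 1 or KO replicate 2 (adjusted p 0.102 to 0.19) and with no filter (0.0811), and Psmb4 without control replicate 2, control replicate 3, KO replicate 1 or KO replicate 3 (adjusted p 0.0831 to 0.19) and with no filter (0.105). Among the 14, the KO effect of Psma3 differed between the days with all 15 libraries, at -0.20 ± 0.07 (adjusted p = 0.045), a call that was lost in 10 of the 12 fits that left out 1 library (adjusted p up to 0.136) and with no filter (0.0818) and without ESC replicate 3 and KO day 2 replicate 2 (0.066). The number of core subunits with a lower KO effect at day 4 than at day 2 was 5 with the stricter filter, 5 in the fit of the compared groups alone, 4 with upper quartile scaling and 2 with DESeq2.

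The ATPases, which form the ring that unfolds substrates, followed a different course. All 6 were lower in control cells at day 2 than in ESCs, at -1.25 (Psmc5) to -0.73 (Psmc6), against 34.9% of all tested genes. All 6 were higher in control cells at day 4 than at day 2, by 0.31 (Psmc1) to 0.90 (Psmc2), against 33.9%. Both counts of 6 held whichever single library was left out. At day 4 control cells were again lower than ESCs for all 6 (against 35.6% of all tested genes), at -0.59 to -0.15. The last value, of Psmc6, no longer passed without ESC day 0 replicate 2, control day 4 replicate 2 or control day 4 replicate 3 (adjusted p 0.0942 to 0.131) and under RLE scaling (0.064), under upper quartile scaling (0.334), with the stricter filter (0.489), with DESeq2 (0.0631) and in the fit of the compared groups alone (0.124). With the stricter filter 3 of the 6 were lower.

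In KO cells at day 2, 5 of the 6 ATPases (83.3%) were higher than in control cells and 0 were lower, against 20.4% and 21.4% of all tested genes. The 5 were Psmc2 (0.25 ± 0.07), Psmc3 (0.24 ± 0.05), Psmc4 (0.21 ± 0.07), Psmc5 (0.20 ± 0.07) and Psmc6 (0.20 ± 0.06), with no overlap of the libraries for any of them. Of all tested genes, 61.3% had no overlap. Psmc1, at 0.06 ± 0.05, did not pass. The 5 became 3 without control replicate 1 or KO replicate 2, and were 5 without ESC replicate 3 and KO day 2 replicate 2. The Psmc4 call was lost without control replicate 1 or KO replicate 2 (adjusted p 0.0546 to 0.0755), and the Psmc5 call without control replicate 1, control replicate 2, KO replicate 1, KO replicate 2 or KO replicate 3 (adjusted p 0.0602 to 0.156).

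Psmc2 had 83.7, 86.8 and 84.4 CPM in KO libraries at day 2, against 73.6, 71.5 and 70.1 CPM in control libraries, the largest rise among the ATPases (adjusted p = 0.00967). Its day 4 levels were 119, 118 and 116 CPM in KO libraries, against 129, 134 and 137 CPM in control libraries, a log2 fold change of -0.18 ± 0.07 (adjusted p = 0.0479). The day 4 call was lost without any 1 of the 6 libraries (adjusted p 0.0619 to 0.142) and with no filter (0.0714). Its KO effect differed between the days, at -0.43 ± 0.10 (adjusted p = 0.00289), under every alternative.

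Psmc6 (chromosome 14, 45329788 to 45349705, plus strand, GRCm38) turned round more strongly. It had 163, 167 and 161 CPM in KO and 143, 142 and 143 CPM in control libraries at day 2, but 166, 158 and 177 CPM in KO and 228, 208 and 204 CPM in control libraries at day 4. KO libraries thus lay above all control libraries at day 2 and below all of them at day 4. Control cells gained 0.58 ± 0.06 from day 2 to day 4, whereas the KO libraries of the 2 days overlapped. The KO effect at day 4 was -0.35 ± 0.06 (adjusted p = 0.000162), and its difference from day 2 was -0.55 ± 0.08 (adjusted p = 8.39e-05). Psmc1 also fell in KO cells at day 4, at -0.14 ± 0.05, a call lost without control replicate 1, control replicate 2, KO replicate 2 or KO replicate 3 (adjusted p 0.0536 to 0.111) and with no filter (0.0707). Its KO effect differed between the days at -0.20 ± 0.06, lost without control day 2 replicate 1, control day 2 replicate 3, KO day 2 replicate 2 or KO day 4 replicate 2 (adjusted p 0.0542 to 0.0796) and with no filter (0.0584). Psmc5 was higher in KO cells at day 4, at 0.20 ± 0.07, lost without control replicate 1, control replicate 2, KO replicate 1 or KO replicate 2 (adjusted p 0.0591 to 0.189) and under upper quartile scaling (0.0892) and with the stricter filter (0.144). Psmc3 and Psmc4 did not pass at day 4. The 3 lower ATPases of day 4 became 1 without control replicate 1 or 2, KO replicate 2 or 3, or the filter.

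The ATPases were also set against the core within each library. The mean ATPase level over the mean core subunit level, both per kilobase, was 0.892 ± 0.00726 in KO and 0.743 ± 0.00970 in control libraries at day 2. At day 4 it was 1.18 ± 0.0206 in KO and 1.05 ± 0.0542 in control libraries, and in ESCs it was 0.998 ± 0.0214. The ATPases over the non-ATPases gave 1.16 ± 0.0124 in KO and 0.944 ± 0.0311 in control libraries at day 2, and 1.33 ± 0.0103 in KO and 1.25 ± 0.0329 in control libraries at day 4. In each of these 4 pairs every KO library lay above every control library. Exact two-sided permutation tests gave p = 0.1 for each, the smallest that this design allows, among 45 such tests of 9 quantities in 5 pairs of groups. The groups did not overlap in 33 of these 45. In summed CPM, the ATPases had a mean of 798 in KO and 705 in control libraries at day 2, but 1027 and 1069 at day 4. The 14 core subunits summed to 2018 in KO and 2140 in control libraries at day 2, and to 1946 and 2197 at day 4. At day 4 the ATPase sum was thus not higher in KO cells, and the core sum was lower.

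**Figure D3:**
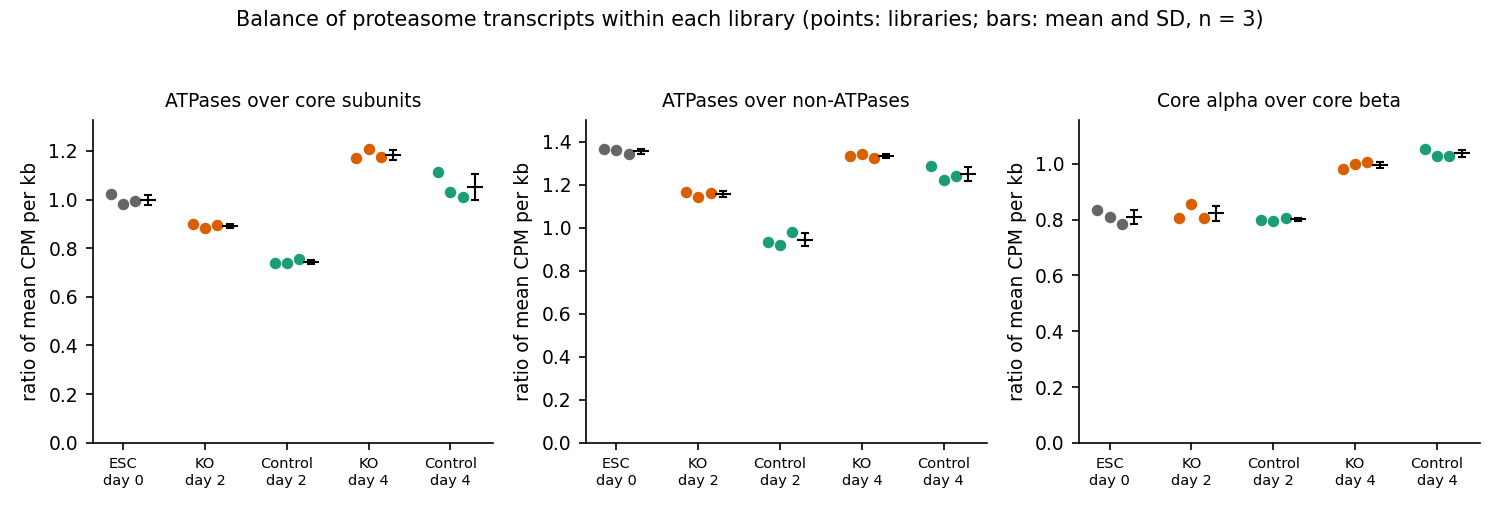
Each panel plots a ratio of mean CPM per kb between 2 classes of proteasome subunits, with 1 point per library and the mean and SD of 3 libraries beside the points. From left to right the panels show ATPases over core subunits, ATPases over non-ATPases and core alpha over core beta subunits. KO points lie above control points at both days in the left and middle panels, and day 4 points lie above day 0 and day 2 points in the right panel.

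The 11 non-ATPase subunits of the Psmd series, which belong to the lid and base that hold the ubiquitin chain, were less uniform. In control cells at day 2, 8 (72.7%) were lower than in ESCs and 0 higher, against 34.9% and 35.6% of all tested genes. The 3 that did not pass were Psmd3, Psmd8 and Psmd11. Psmd6 changed most, at -1.25 ± 0.07. From day 2 to day 4 of the control cells 6 (54.5%) were higher, led by Psmd6 at 1.10 ± 0.07 and Psmd12 at 0.81 ± 0.06. Psmd3, Psmd8 and Psmd11 (27.3%) were lower. Of all tested genes, 33.9% were higher and 34.6% lower. Psmd14, the deubiquitinase that removes the chain, was 0.37 ± 0.06 higher in control cells at day 4 than in ESCs.

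In KO cells at day 2, 5 non-ATPases (45.5%) were lower than in control cells and 0 higher with all 15 libraries, against 21.4% and 20.4% of all tested genes. The 5 were Psmd3, Psmd14 (-0.29 ± 0.06), Psmd11 (-0.26 ± 0.05), Psmd8 (-0.23 ± 0.05) and Psmd1 (-0.18 ± 0.06). All but Psmd1 passed under every alternative, and Psmd1 was lost without control replicate 2, KO replicate 2 or KO replicate 3 (adjusted p 0.0559 to 0.137). The 0 higher non-ATPases at day 2 became 2 in the fit of the compared groups alone (Psmd6 and Psmd7) and 1 without ESC replicate 3 and KO day 2 replicate 2 (Psmd6). At day 4 again 5 (45.5%) were lower and 1 (9.09%) higher, against 18.1% and 19.5% of all tested genes. Psmd7 (-0.29 ± 0.06), Psmd12 (-0.25 ± 0.06), Psmd1 (-0.22 ± 0.06), Psmd2 (-0.16 ± 0.05) and Psmd8 (-0.15 ± 0.05) were lower, and Psmd3 was higher. Psmd2 was lost without KO replicate 3 (adjusted p 0.0517) and Psmd8 without control replicate 1, control replicate 2, control replicate 3, KO replicate 2 or KO replicate 3 (adjusted p 0.0657 to 0.186) and with no filter (0.0868). The 5 non-ATPases lower at day 4 became 3 without KO replicate 3. Psmd4, Psmd6 and Psmd13 passed at neither day with all 15 libraries.

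Psmd3 is a scaffold subunit of the lid (chromosome 11, 98682554 to 98695979, plus strand, GRCm38). At day 2 it had the largest KO effect among the Psmc and Psmd subunits of the regulatory particle. It had 249.8, 252 and 251 CPM in KO libraries at day 2, against 342, 360.4 and 337 CPM in control libraries, a log2 fold change of -0.46 ± 0.05 (adjusted p = 2.66e-06). At day 4 it had 308, 295 and 305 CPM in KO libraries, against 254, 251 and 259 CPM in control libraries, a log2 fold change of 0.25 ± 0.05 (adjusted p = 0.000847). The KO libraries lay below all control libraries at day 2 and above all of them at day 4. The difference between the days was 0.71 ± 0.07 (adjusted p = 2.05e-06), and all 3 calls held under every alternative. In control cells Psmd3 was close to ESCs at day 2 (-0.04 ± 0.05, not past the test) and lower at day 4 than at day 2 (-0.44).

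Among the other non-ATPases the KO effect differed between the days for Psmd11 (0.36 ± 0.06) and Psmd7 (-0.41 ± 0.08) under every alternative tried. Psmd7, a structural subunit that pairs with Psmd14, had 153, 148 and 157 CPM in KO libraries at day 4, against 191, 178 and 189.9 CPM in control libraries. Psmd12 (-0.28 ± 0.08) was lost without KO day 2 replicate 2 (adjusted p 0.0513). Psmd14 (0.23 ± 0.08) was lost in 9 of the 12 fits that left out 1 library (adjusted p up to 0.0915) and under upper quartile scaling (0.0873) and with the stricter filter (0.125).

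**Figure D4:**
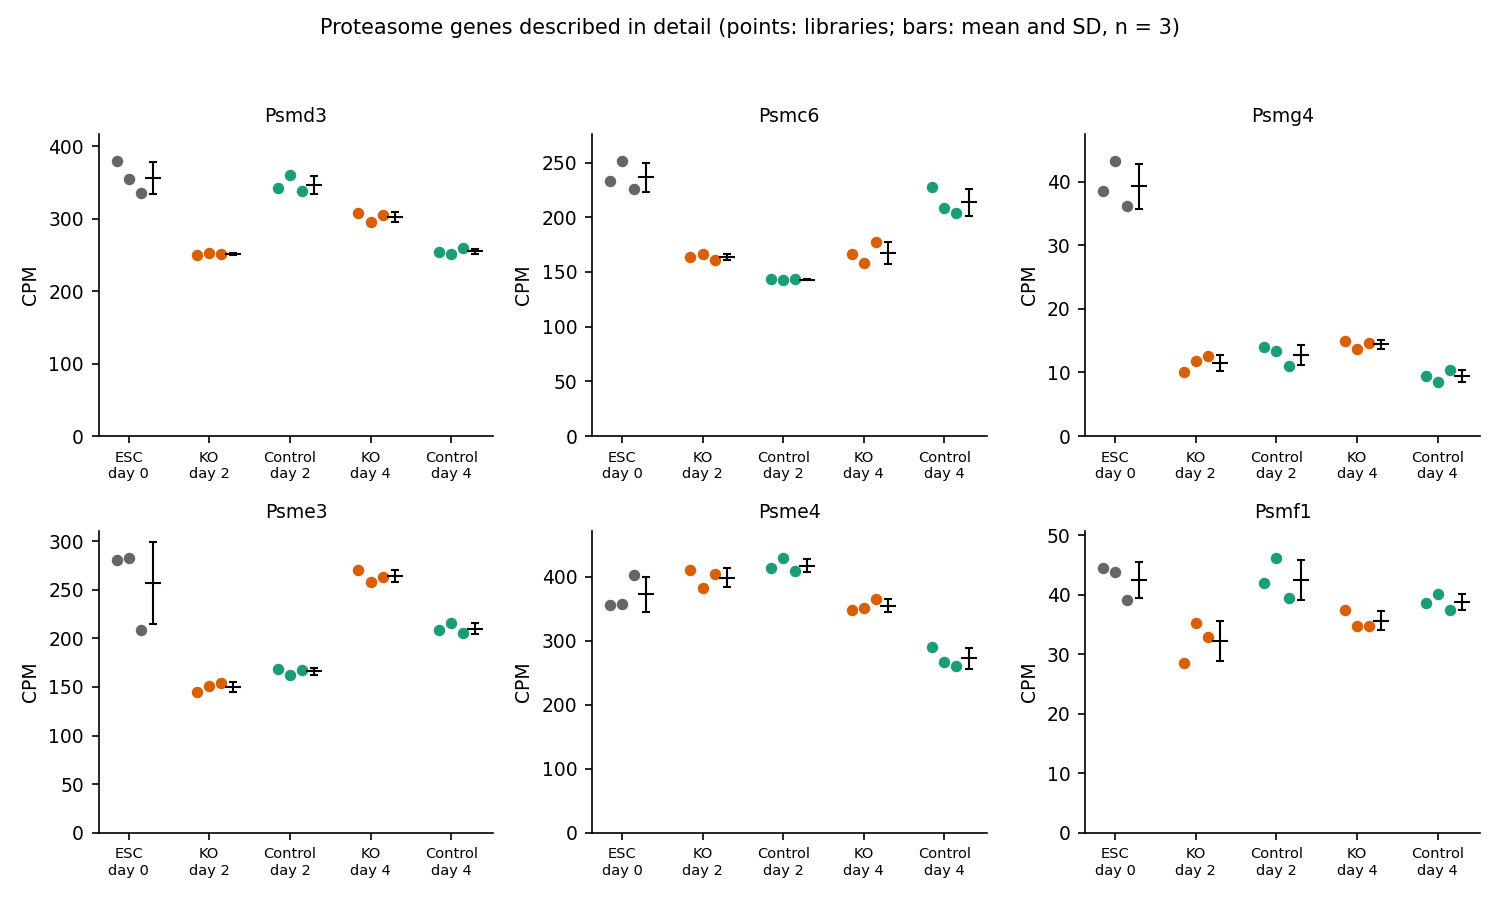
Levels in CPM of 6 proteasome genes are plotted by library, with the mean and SD of 3 libraries beside the points, for ESCs and for KO and control cells at days 2 and 4. Psmd3 and Psmc6 change the order of KO and control between the days, Psmg4, Psme3 and Psme4 are higher in KO at day 4, and Psmf1 is lower in KO at day 2.

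The immunoproteasome subunits, which replace the catalytic beta subunits in cells exposed to interferon gamma, were scarce. Psmb8 (replacing Psmb5) had 0.396, 0.458 and 0.343 CPM in KO and 0.223, 0.142 and 0.173 CPM in control libraries at day 2, 0.121, 0.0576 and 0.130 CPM in KO and 0.241, 0.345 and 0.118 CPM in control libraries at day 4, and 0.470, 0.203 and 0 CPM in ESC libraries. At day 2 all KO libraries lay above all control libraries. It was too low to be tested, and a count of 0 allows a level of up to 0.198 CPM in that ESC library (3 counts, for counting error only). Per kilobase, Psmb9 stood at 0.701 ± 0.104% of Psmb6, the subunit it replaces, in KO and at 1.45 ± 0.123% in control cells at day 2. Psmb10 stood at 10.5 ± 1.12% of Psmb7 in KO and at 12.7 ± 0.972% in control cells at day 2. In no library did either reach 15% of its constitutive partner.

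Psmb9 (chromosome 17, 34181987 to 34187764, minus strand, GRCm38) had the largest KO effect of the 47 tested proteasome genes at day 2. It had 1.88, 2.21 and 2.66 CPM in KO libraries, against 5.02, 4.68 and 5.23 CPM in control libraries, and the groups did not overlap. The log2 fold change was -1.14 ± 0.25 (adjusted p = 0.00179), a call that held in every alternative in which the gene was tested; the stricter filter removed it. At day 4 it had 1.64, 1.96 and 1.57 CPM in KO libraries, against 2.59, 2.14 and 2.41 CPM in control libraries, again below all controls, but the difference of -0.47 ± 0.29 did not pass (adjusted p = 0.217). The 2 KO effects did not differ from each other past the threshold (0.67 ± 0.38, adjusted p = 0.181).

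From ESCs to control cells at day 2, Psmb9 went against the constitutive core subunits. It had 0.739, 1.35 and 2.31 CPM in ESC libraries, so that control cells at day 2 were 1.75 ± 0.28 (adjusted p = 2.75e-05) higher on the log2 scale. From day 2 to day 4 of the control cells it then fell by 1.06 ± 0.26 on the log2 scale. The rise of control day 4 over ESCs (0.70 ± 0.30) was lost without ESC day 0 replicate 1, ESC day 0 replicate 2, control day 4 replicate 1, control day 4 replicate 2 or control day 4 replicate 3 (adjusted p 0.0528 to 0.211) and with no filter (0.0536) and in the fit of the compared groups alone (0.146). Among the ESC libraries, the one with the least fibroblast transcript, replicate 3, had the most Psmb9.

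Psmb10 (replacing Psmb7) was the most abundant of the 3. It had 7.58, 9.24 and 9.26 CPM in KO and 10.4, 12.3 and 12.1 CPM in control libraries at day 2, a difference of -0.42 ± 0.21 (adjusted p = 0.115) that passed only when the fit held the compared groups alone (adjusted p = 0.00728) or left out ESC replicate 3 and KO day 2 replicate 2 (adjusted p = 0.021). Psmb10 levels at day 4 were 5.95, 6.23 and 5.28 CPM in KO and 5.23, 6.0 and 4.77 CPM in control libraries, which overlapped. Control cells at day 2 were 0.73 ± 0.21 above ESCs, a call lost in the fit of the compared groups alone (0.0518), and control cells at day 4 were -1.13 ± 0.22 against day 2. In the ESC libraries it had 10.1, 6.63 and 4.29 CPM, in the same order as the summed fibroblast markers given above. The part of fibroblast transcripts in the ESC level was not tested.

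Psmb9 lies head to head with Tap1, a peptide transporter of antigen presentation, on chromosome 17, and their annotated exons (GENCODE M21) overlap by 212 bases on opposite strands. The sources used here do not state whether the counting used strand, so reads from the overlap may be shared. Tap1 had 27.5, 31.1 and 27.3 CPM in KO and 55.0, 54.6 and 53.5 CPM in control libraries at day 2, a log2 fold change of -0.92 ± 0.21 (adjusted p = 0.0023), and control cells at day 2 were 2.42 ± 0.23 above ESCs. Tap1 levels at day 4 were 18.6, 16.5 and 15.7 CPM in KO and 13.9, 14.5 and 13.8 CPM in control libraries, a difference of 0.27 ± 0.23 that did not pass, and the KO effects of the days differed (1.20 ± 0.31, adjusted p = 0.00716). The stretch between the RefSeq starts of both genes is shown because both fell together at day 2. It spans chr17:34187331-34187555 (GRCm38.p6, 225 bases, plus strand), and capitals mark a CCAAT match and a GC box on the minus strand. GENCODE M21 annotates a Psmb9 exon that reaches past this stretch:
Psmb9-Tap1 interval: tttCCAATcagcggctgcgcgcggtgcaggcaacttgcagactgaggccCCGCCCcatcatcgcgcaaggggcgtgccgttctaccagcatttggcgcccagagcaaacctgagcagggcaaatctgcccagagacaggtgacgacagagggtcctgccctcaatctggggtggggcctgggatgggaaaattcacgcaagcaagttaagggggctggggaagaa
The CCAAT match starts 4 bases upstream of the Psmb9 start, and the GC box lies 50 bases upstream of it.

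**Figure D5:**
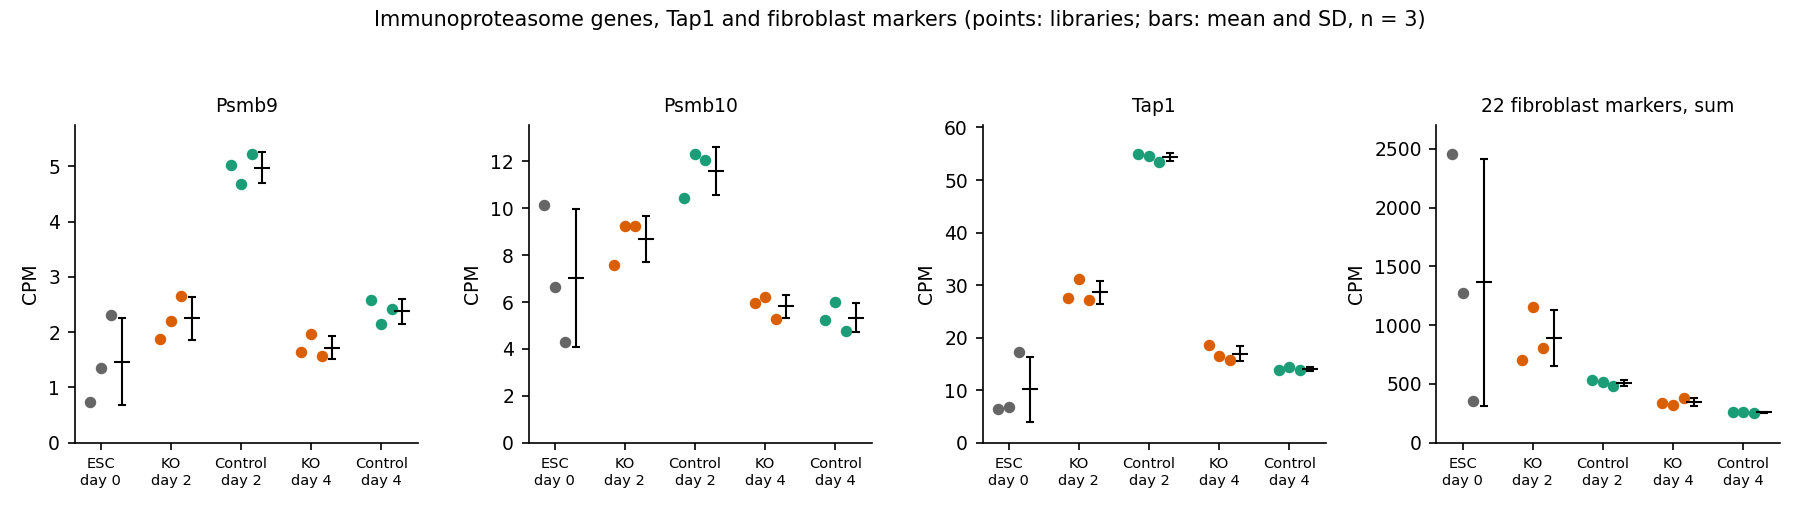
Levels in CPM of Psmb9, Psmb10 and Tap1, and the sum over 22 fibroblast markers, are plotted by library for ESCs and for KO and control cells at days 2 and 4, with the mean and SD of 3 libraries beside the points. Psmb9 and Tap1 are highest in the control libraries of day 2, and the ESC libraries spread widely in the fibroblast sum.

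The interferon and antigen presentation list held 22 tested genes. Of these, 2 (9.09%) were higher and 6 (27.3%) lower in KO than in control cells at day 2, against 20.4% and 21.4% of all tested genes, and 3 (13.6%) were higher and 8 (36.4%) lower at day 4, against 19.5% and 18.1%. Besides Tap1, the fallen genes at day 2 included the MHC class I gene H2-K1 (-0.68 ± 0.10) and the kinase gene Jak2 (-0.40 ± 0.07). At day 4 H2-K1 (-1.11 ± 0.11), Irf1 (-1.10 ± 0.14) and Irf8 (-2.67 ± 0.40) fell, the last 2 being interferon-regulated transcription factors, and Tapbp, which helps load peptide on MHC class I, rose (0.67 ± 0.07). In control cells 14 of the 22 (63.6%) were higher and 2 (9.09%) lower at day 2 than in ESCs, against 35.6% and 34.9% of all tested genes. From day 2 to day 4 of the control cells 5 (22.7%) were higher and 9 (40.9%) lower, against 33.9% and 34.6%.

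The activators are caps that open the core without ubiquitin or ATP. Psme1 and Psme2, which form PA28 alpha-beta and are interferon-inducible, were lower in control cells at day 4 than in ESCs. Psme1 had 43.4, 40.7 and 40.6 CPM in KO and 36.4, 38.7 and 33.3 CPM in control libraries at day 2, 24.7, 27.7 and 26.4 CPM in KO and 23.5, 25.5 and 26.5 CPM in control libraries at day 4, and 59.4, 65.4 and 52.8 CPM in ESC libraries. The log2 fold change of control day 4 over ESCs was -1.23 ± 0.09. At day 2 all KO libraries lay above all control libraries, but the difference of 0.20 ± 0.08 (adjusted p = 0.0643) did not pass. It passed without control replicate 2 (adjusted p = 0.0496), without ESC replicate 3 and KO day 2 replicate 2 (adjusted p = 0.0301), with the stricter filter (adjusted p = 0.0436) and in the fit of the compared groups alone (adjusted p = 0.00976).

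Psme2 had 27.9, 31.5 and 27.6 CPM in KO and 25.2, 29.3 and 24.9 CPM in control libraries at day 2, 11.2, 10.6 and 12.7 CPM in KO and 10.3, 12.4 and 11.7 CPM in control libraries at day 4, and 35.1, 37.9 and 26.9 CPM in ESC libraries. KO and control overlapped at both days, and the log2 fold change of control day 4 over ESCs was -1.53 ± 0.13. Psme2b, a near copy of Psme2, had between 0.13 and 1.62 CPM in the 15 libraries, and its KO effects of -0.03 ± 0.37 at day 2 and -0.40 ± 0.45 at day 4 did not pass. Of the 50-base stretches of Psme2b exons 69.3% occur elsewhere, Psme2 included, so its counts may be shared with Psme2.

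Psme3 and Psme4, the nuclear activators PA28 gamma and PA200, rose in KO cells at day 4. Psme3 had 270.4, 258 and 263 CPM in KO libraries, against 208, 216 and 206 CPM in control libraries, with no overlap (0.33 ± 0.08, adjusted p = 0.0053). At day 2 it had 145, 151 and 154 CPM in KO libraries, against 169, 162 and 168 CPM in control libraries, a difference of -0.15 ± 0.08 that did not pass with all 15 libraries. It passed in the fit of the compared groups alone (adjusted p = 0.0111) and without ESC replicate 3 and KO day 2 replicate 2 (adjusted p = 0.0166). In ESC libraries Psme3 had 281, 282 and 208 CPM, the lowest in replicate 3.

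Psme4 had 348, 351 and 366 CPM in KO libraries at day 4, against 290.0, 267 and 259.8 CPM in control libraries, again with no overlap (0.38 ± 0.06, adjusted p = 8.00e-05). At day 2 it had 410.0, 383 and 403 CPM in KO and 414, 429 and 409 CPM in control libraries, which overlapped. The control cells lost Psme4 from day 2 to day 4 (-0.62 ± 0.06). The small excess of control day 2 over the ESC libraries (357, 357 and 403 CPM; 0.16 ± 0.06) was lost without ESC day 0 replicate 1, ESC day 0 replicate 2 or control day 2 replicate 2 (adjusted p 0.0547 to 0.0814). The KO effect differed between the days for Psme3 (0.48 ± 0.12, adjusted p = 0.00484) and Psme4 (0.45 ± 0.08, adjusted p = 0.000463), and these calls and those at day 4 held under every alternative.

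Relative to the core, the mean of Psme3 and Psme4 per kilobase was 1.03 ± 0.0108 of the mean core subunit in KO and 0.716 ± 0.0489 in control cells at day 4. At day 2 the ratio was 0.765 ± 0.0297 in KO and 0.773 ± 0.0132 in control cells. The day 4 groups did not overlap and the day 2 groups did, with exact two-sided permutation p of 0.1 and 0.8.

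Psmf1, the inhibitor PI31 that binds the core (chromosome 2, 151715812 to 151744186, minus strand, GRCm38), had 28.6, 35.2 and 32.9 CPM in KO libraries at day 2, against 42.0, 46.1 and 39.4 CPM in control libraries. The groups did not overlap, the log2 fold change was -0.40 ± 0.08 (adjusted p = 0.00146), and the call held under every alternative. Psmf1 levels at day 4 were 37.5, 34.6 and 34.8 CPM in KO and 38.6, 40.1 and 37.5 CPM in control libraries, which overlapped (-0.12 ± 0.09, not past the test), and ESC libraries had 44.5, 43.8 and 39.0 CPM. The difference between the days, 0.28 ± 0.12, passed without KO day 2 replicate 2 (adjusted p = 0.0434) and without that library and ESC replicate 3 (adjusted p = 0.0163), but not with all libraries (adjusted p = 0.085). With all libraries neither control day differed from the other or from ESCs past the threshold, but control cells at day 4 were lower than ESCs without ESC replicate 3 and KO day 2 replicate 2 (-0.19, adjusted p = 0.0457).

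Psma8, an alpha subunit known from the germline, was present at low level. It had 30.8, 27.0 and 27.6 CPM in KO libraries at day 2, against 17.7, 20.8 and 20.8 CPM in control libraries (0.52 ± 0.10, adjusted p = 0.00085). At day 4 it had 31.2, 30.2 and 28.7 CPM in KO libraries, against 21.1, 23.5 and 23.1 CPM in control libraries (0.41 ± 0.11, adjusted p = 0.00558), and ESC libraries had 27.0, 25.2 and 20.1 CPM. KO libraries lay above all control libraries at both days, and both calls held under every alternative. Psma8 lies on chromosome 18, whose 401 tested genes had a median KO effect of 0.56 at day 2 and 0.01 at day 4, and the part of that shift in the day 2 value was not tested. Psmb11, the beta subunit known from thymic cortical epithelium, had at most 0.0601 CPM in any library and 0 counts in 11 of 15, where a count of 0 allows up to 0.207 CPM.

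The assembly factors build the rings and then leave them. Psmg2, a chaperone of the alpha ring, had 71.9, 71.6 and 71.9 CPM in KO libraries at day 2, against 50.4, 47.1 and 51.2 CPM in control libraries, the largest rise among the 47 tested genes at that day (0.53 ± 0.08, adjusted p = 0.000104). It too lies on chromosome 18, where the median KO effect was 0.56 at day 2. That chromosome also shifted between control groups. Its median was -0.14 for control day 2 against ESCs, 0.35 for control day 4 against day 2 and 0.32 for control day 4 against ESCs. Psmg2 levels at day 4 were 59.6, 61.7 and 58.3 CPM in KO and 65.8, 66.0 and 76.7 CPM in control libraries, below all controls but not past the test (-0.21 ± 0.08, adjusted p = 0.0534). The day 4 difference did pass in 6 of the 14 alternatives tried, namely with DESeq2 (adjusted p = 0.0368), under RLE scaling (adjusted p = 0.0457), in the fit of the compared groups alone (adjusted p = 0.0154), with the stricter filter (adjusted p = 0.0157), under upper quartile scaling (adjusted p = 0.0236) and without ESC replicate 3 and KO day 2 replicate 2 (adjusted p = 0.00808). The difference between the days was -0.75 ± 0.12 (adjusted p = 0.000149), beside a median of -0.59 for the chromosome, and ESC libraries had 46.1, 45.3 and 36.0 CPM. Psmg1, the partner of Psmg2 on another chromosome, did not pass at either day (-0.07 and -0.07).

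Psmg3 and Psmg4 form the second chaperone pair of the alpha ring. Psmg3 had 11.2, 9.78 and 10.9 CPM in KO libraries at day 2, against 13.6, 14.7 and 15.6 CPM in control libraries (-0.46 ± 0.15, adjusted p = 0.0209), a call lost without control replicate 2, control replicate 3 or KO replicate 2 (adjusted p 0.053 to 0.0795). At day 4 it did not pass (0.05 ± 0.16). Psmg4 had 15.0, 13.6 and 14.7 CPM in KO libraries at day 4, against 9.44, 8.49 and 10.4 CPM in control libraries, the largest rise among the 47 tested genes at that day (0.61 ± 0.12, adjusted p = 0.00117). At day 2 it had 10.1, 11.8 and 12.5 CPM in KO and 14.1, 13.3 and 11 CPM in control libraries, which overlapped. Its KO effect differed between the days, at 0.76 ± 0.17 (adjusted p = 0.00274), under every alternative.

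From ESCs to control cells Psmg4 fell furthest of the tested proteasome genes. ESC libraries had 38.5, 43.2 and 36.2 CPM, and control cells were -1.62 ± 0.12 at day 2 and -2.05 ± 0.12 at day 4 against them. Psmd5, Psmd9 and Psmd10 are chaperones of the ATPase base. Psmd10 (gankyrin) was lower at day 2 (-0.31 ± 0.09, adjusted p = 0.0125), a call lost without KO replicate 1 or KO replicate 2 (adjusted p 0.0536 to 0.0553). Psmd5 was lower at day 4 (-0.21 ± 0.05, adjusted p = 0.00351) under every alternative, and its difference between the days (-0.19 ± 0.07) was lost in 10 of the 12 fits that left out 1 library (adjusted p up to 0.0997) and with no filter (0.117) and without ESC replicate 3 and KO day 2 replicate 2 (0.0557). Psmd9 passed in no comparison.

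A further list held genes outside the naming pattern that assemble, recruit to or regulate the proteasome. Of 30 listed, 26 were tested, and 5 (19.2%) were higher and 7 (26.9%) lower in KO than in control cells at day 2, against 20.4% and 21.4% of all tested genes. At day 4, 8 (30.8%) were higher and 5 (19.2%) lower, against 19.5% and 18.1%. The higher ones at day 2 included Txnl1, a thioredoxin bound to the regulatory particle (0.54 ± 0.05), Keap1, the adaptor that holds NRF2 for degradation (1.03 ± 0.10), and Usp14, a deubiquitinase of the regulatory particle (0.44 ± 0.07). Txnl1 and Usp14 lie on chromosome 18, whose median KO effect was 0.56 at day 2, and the part of that shift in their values was not tested. The lower ones included the shuttle Ubqln1 (-0.32 ± 0.05), Pomp, the maturation factor of the core (-0.50 ± 0.09), and Ecpas, which binds the proteasome's regulatory particle (-0.25 ± 0.05). At day 4 Nfe2l1, the transcription factor that drives proteasome genes when the proteasome is inhibited, rose (0.67 ± 0.05), with the shuttle Ubqln4 (0.64 ± 0.05) and Ecpas (0.40 ± 0.05). Maff (-1.33 ± 0.21) and Mafk (-0.61 ± 0.14), small Maf partners of such factors, fell, as did Sem1, a small subunit of the regulatory particle (-0.43 ± 0.10). In control cells 2 of the 26 (7.69%) were higher and 17 (65.4%) lower at day 2 than in ESCs, against 35.6% and 34.9% of all tested genes, and 14 (53.8%) were higher and 7 (26.9%) lower at day 4 than at day 2, against 33.9% and 34.6%.

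Of 15 listed genes of ubiquitin and its activation, 14 were tested. In KO cells 2 (14.3%) were higher and 6 (42.9%) lower at day 2, against 20.4% and 21.4% of all tested genes, and 2 (14.3%) were higher and 4 (28.6%) lower at day 4, against 19.5% and 18.1%. Vcp, the segregase that feeds substrates to the proteasome, fell at day 2 (-0.20 ± 0.04), as did Uba1, the main ubiquitin-activating enzyme (-0.21 ± 0.05). At day 4 the polyubiquitin gene Ubb fell (-0.33 ± 0.06), as did Uba3, the catalytic subunit of the NEDD8 E1 (-0.32 ± 0.07).

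The promoters were searched for the core of the antioxidant response element, TGACNNNGC, which NRF1 (the product of Nfe2l1) and NRF2 read. RefSeq promoter windows, from 250 bases before to 50 after a start on GRCm38.p6, matched 41 of the 49 symbols with 44 windows. Psmb1, Psmb2, Psmb7, Psma8, Psmc3, Psmd3, Psmd7 and Psmg2 had no window, so their promoters were not searched for any motif. On either strand the element was present in 6 of the 44 windows (13.64%), against 12.39% of all 32851 windows. These 6 are shown, 5′ to 3′ on the strand of the match, with the match in capitals, because Nfe2l1 itself changed in KO cells:
Psmb5: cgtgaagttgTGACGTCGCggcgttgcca
Psmb6: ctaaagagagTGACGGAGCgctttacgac
Psmc6: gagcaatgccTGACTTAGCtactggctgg
Psmd12: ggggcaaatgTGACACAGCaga
Psme4: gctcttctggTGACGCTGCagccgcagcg
Psmd9: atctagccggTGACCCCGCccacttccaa
The matches lie 47 bases before the start of Psmb5 and 9 before that of Psmb6 on the coding strand, and 227 and 247 before the starts of Psmc6 and Psmd12 and 7 before that of Psme4 on the opposite strand. The printed stretches span chr14:54618024-54618052 (Psmb5, minus strand), chr11:70525338-70525366 (Psmb6, plus), chr14:45329587-45329615 (Psmc6, minus), chr11:107479278-107479299 (Psmd12, minus), chr11:30771758-30771786 (Psme4, minus) and chr5:123228149-123228177 (Psmd9, plus). The Psmd9 match lies 31 bases before one of its starts, on the coding strand.

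The KO effects of the 6 genes with the element are given for day 4, and a role of NRF1 or NRF2 in them was not tested. At day 4 Psme4 rose (0.38), Psmc6 (-0.35) and Psmd12 (-0.25) fell, and Psmb5 (0.08), Psmb6 (-0.12) and Psmd9 (-0.07) did not pass. Other motifs were counted on both strands in the same windows. CCAAT was in 31.82% of the proteasome windows and 37.41% of all, GGGCGG in 54.55% and 35.66%, TTCNNNGAA (read by STAT factors) in 6.82% and 8.3%, and GGGA followed by TTCC at a gap of 2 bases (the NF-kappaB type) in 2.27% and 1.47%. A repeat of GAAA at a gap of 2 bases, the interferon response type, was in 11.36% and 3.44%, in the windows of Psmb3, Psmd4, Psme1, Psmd9 and Psmg4. A match is a description of letters in these windows and not of a site in use.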

How the data were processed

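Raw counts of reads per gene symbol, 1 table per library, were used as deposited by the authors. The submitters' processing notes name the builds mm10 and GRCm38 and the tools DESeq2, StringTie, featureCounts and STAR, with no versions. The sources used here do not state the annotation or the strand setting. Groups and replicate numbers came from the titles, per the labels. Genes were kept by filterByExpr (smallest count 10, smallest total 15), scaled by TMM, and tested with edgeR 4.0.16 in R 4.3.3 in 1 quasi-likelihood model of all 15 libraries and 5 groups, with Benjamini-Hochberg adjustment over the 15696 tested genes at a threshold of 0.05. No libraries of a group agreed within sampling noise (chi-square per degree of freedom 3.20 to 31.8). Each was counted as 1 sample, but this check cannot tell separate cultures from technical repeats. The model was tested on simulated data. Exon lengths, positions and shared 50-base stretches are from GENCODE M21 on GRCm38, promoters from RefSeq on GRCm38.p6.

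The members, lists, tests and alternatives were chosen with earlier results of these data known. Every member may be named; values in every library are given for the immunoproteasome, activator, inhibitor and tissue-restricted genes and for the 3 largest rises and falls of each KO comparison without overlap, and Psmb5, Psmc6, Psmd7, Psmg4 and Tap1 were given in more groups after their values were seen. From each list, up to 3 risen and 3 fallen genes with the smallest p are named. The genes that rose in the interferon list at day 2 and in the ubiquitin list were counted but are not named. Alternatives tried were no filter, RLE or upper quartile scaling, a stricter filter (10 CPM in 3 libraries), DESeq2 1.42.0, the compared groups alone, the replicate number as a block, each library left out, and, added after seeing the data, 2 libraries left out together.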

Additional observations from a re-analysis of the deposited data

Results flagged for a closer look

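The KO effect at day 4 minus that at day 2 passed the test of the difference itself (edgeR's quasi-likelihood test, adjusted p under 0.05) for 14 proteasome genes, which is why they are listed here. On the log2 scale the difference was 0.76 for Psmg4, 0.71 for Psmd3, 0.48 for Psme3, 0.45 for Psme4, 0.36 for Psmd11 and 0.23 for Psmd14. It was -0.75 for Psmg2, -0.55 for Psmc6, -0.43 for Psmc2, -0.41 for Psmd7, -0.28 for Psmd12, -0.20 for Psma3, -0.20 for Psmc1 and -0.19 for Psmd5. Standard errors lay between 0.06 (Psmd11 and Psmc1) and 0.17 (Psmg4). Psmg2 is the one of the 14 on chromosome 18, whose genes shifted by a median of -0.59 in the same difference. The 6 and 8 calls are 12.8% and 17% of the 47 tested proteasome genes, against 18.6% and 17.6% of all tested genes.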

How the results depend on the processing

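The 12 counts of called proteasome genes stayed within 1.5 times of their value in 168 of 180 alternatives. The exceptions outside single left-out libraries were the lower genes in KO cells at day 4 without the filter (12, against 20) and the difference between the days. There the 8 lower genes became 5 without the filter, 14 with the stricter filter and 14 in the fit of the compared groups alone. The higher genes of control day 2 against ESCs numbered 2 in the fit of the compared groups alone, against 4. The cause was not tested. With single libraries left out, the lower genes ranged from 7 to 11 in KO cells at day 2, from 12 to 17 at day 4, and from 4 to 7 for the difference between the days. Of 2900 single values, 2666 kept their direction and side of the threshold, 200 no longer passed, 16 newly passed and 18 changed sign. The values that changed sign did not pass the test. The Psme2 KO effect at day 4 was -0.00792 with RLE scaling, -0.0388 with upper quartile scaling, -0.0614 with the stricter filter, -0.00792 with DESeq2, -0.00176 in the compared groups alone, -0.00106 without ESC replicate 3 and KO day 2 replicate 2, and -0.0738 to 0.0588 with single libraries left out. Psmf1 in control day 2 against ESCs was -0.0128 with RLE scaling, -0.0128 with DESeq2, -0.0539 without these 2 libraries and -0.0578 to 0.0576 with single libraries left out. Psma8 in control day 4 against ESCs was 0.00803 with the stricter filter. Psme2b ranged over single left-out libraries from -0.177 to 0.144 at day 2, from -0.769 to 0.0171 at day 4 and from -0.730 to 0.0496 for the difference.

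Samples with the same replicate number did not deviate together (correlations between groups of -0.05 to 0.06), so the numbers were not taken to pair them. With the replicate number as a block, 6 proteasome genes were higher and 11 lower in KO cells at day 2, 5 and 16 at day 4, 6 and 6 for the difference, 4 and 36 for control day 2 against ESCs, 21 and 16 for control day 4 against day 2, and 4 and 32 for control day 4 against ESCs. The calls that did not pass in that fit were Psmc5 at day 2 (adjusted p = 0.0568), Psmb3 (0.0597), Psmb4 (0.0580), Psmc2 (0.0501), Psmc5 (0.0569) and Psmd8 (0.0626) at day 4, Psma3 (0.0508) and Psmd5 (0.0609) for the difference, and Psmd6 in control day 4 against ESCs (0.0621). Depth limits Psmb8, Psmb11 and Psme2b, with at most 1.62 CPM.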
